A study of Oryza sativa with 27 samples.

Results

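The 41 rice loci described here rose at 30 and 90 min after a dose of the herbicide safener metcamifen and were back near the carrier level at 240 min. They were selected on these values, out of 45866 loci with LOC_Os identifiers and 46102 loci in all. Levels are CPM, each count as a share of its library's total, on the usual counts-per-million scale. A metcamifen effect is the log2 ratio of the metcamifen mean to the DMSO mean, with 0.5 CPM added to both. A member had an effect of at least 1 at 30 min and at 90 min, and under 0.5 at 240 min. At 30 min its lowest metcamifen library also lay above its highest DMSO library, and its metcamifen mean was at least 2 CPM. Of 1176 LOC_Os loci that met the conditions on libraries and level at 30 min, 182 had an effect of at least 1. At 90 min 164 of these still had one, and 123 of the 164 kept an effect of 0.5 or more at 240 min. The other 41 are the members. All metcamifen and DMSO values of these loci are therefore descriptions of what was chosen.

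The loci were measured by sequencing polyA RNA from 5-day-old rice cells (Oryza sativa, cultivar Tsukinohikari) grown in suspension culture. Cultures received 5 µM metcamifen, 5 µM cyprosulfamide or the carrier DMSO alone, which both safener groups also contained, and were sampled at 30, 90 and 240 min. Each of the 9 groups had 3 replicates, which gives 27 libraries. A suspension culture is a dividing population without organs, and counts from it cannot tell a change in every cell from a change in some of them.

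Safeners are applied with a herbicide to limit its injury to a crop. In cereals they are known for raising enzymes that detoxify the herbicide, such as glutathione transferases, cytochrome P450s and glycosyltransferases. Metcamifen and cyprosulfamide are both N-acyl sulfonamides with a 2-methoxybenzoyl group. Metcamifen carries a methylurea group where cyprosulfamide carries a cyclopropyl amide. The level of a transcript depends both on how fast it is made and on how fast it is broken down, and counts do not tell these apart. None of the 41 identifiers was found in the rice gene table used here, so the loci are given by identifier, without names, functions or sequences.

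The libraries held 5516373 to 43747251 counts. DMSO libraries held 16716222 to 21620410 and metcamifen libraries 7278921 to 26162571. The 3 DMSO libraries of replicate 1 stood apart from the other 6 on the first principal component, at 16.9 to 28.8 against -12.9 to -3.38. Among the 3 DMSO libraries of a time, replicate 1 was the lowest for 35 of the 41 members at 30 min, for 26 at 90 min and for 34 at 240 min. Without these 3 libraries 45 loci met the rule, of which 37 were among the 41. On the same component metcamifen replicate 1 lay below replicates 2 and 3 of its time. It stood at -15.1 against -0.00638 and -0.822 at 30 min, and at -38.2 against -23.8 and -20.5 at 90 min. At 240 min it stood at -19.5 against 1.89 and 3.43. It was the highest metcamifen library for 21 of the 41 members at 30 min, 19 at 90 min and 27 at 240 min. Among the cyprosulfamide libraries at 30 min, replicate 2 was the deepest of all 27 and was the highest of its group for 30 of the 41 members.

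The 41 loci took a small share of all counts, larger under metcamifen at the first 2 times. In DMSO cultures they held 0.110% ± 0.0140 (SD, n = 3) of the counts at 30 min, 0.0980% ± 0.00806 at 90 min and 0.110% ± 0.0188 at 240 min. In metcamifen cultures the share was 0.322% ± 0.0142 at 30 min and 0.334% ± 0.00686 at 90 min, and it was 0.130% ± 0.0100 at 240 min. In cyprosulfamide cultures it was 0.117% ± 0.0227, 0.103% ± 0.00475 and 0.106% ± 0.00313 at the same times. At each time the mean share under cyprosulfamide differed from the DMSO mean by less than the DMSO SD. The 4 loci with the highest metcamifen level at 30 min, LOC_Os07g12340, LOC_Os03g57690, LOC_Os03g19720 and LOC_Os10g02380, made up 54.1% of the summed level of the 41 there.

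**Figure D1:**
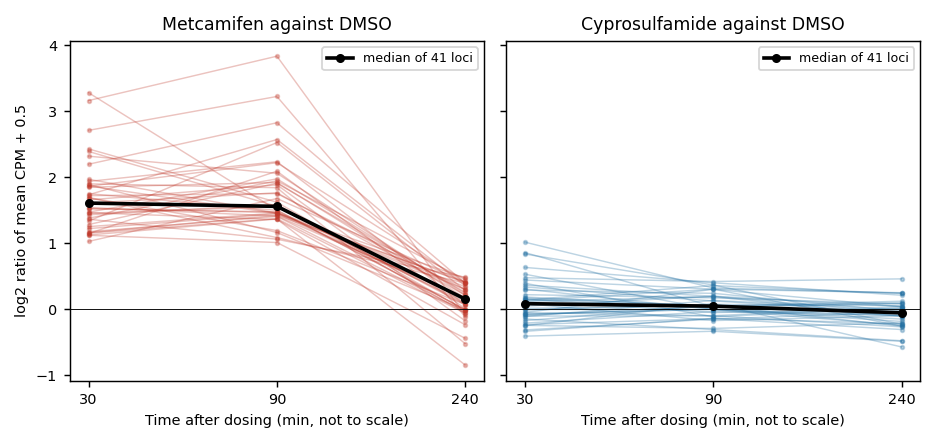
Log2 ratio of safener to DMSO mean CPM, with 0.5 CPM added to both, at 30, 90 and 240 min (time axis not to scale). Each thin line is 1 of the 41 loci and the thick line their median. The metcamifen median stands at 1.61, 1.56 and 0.16, by the choice of the loci. The cyprosulfamide lines stay between -0.57 and 1.02.

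At 30 min the metcamifen effects of the 41 loci ran from 1.03 to 3.28 on the log2 scale, with a median of 1.61. At 90 min they ran from 1.01 to 3.84, with a median of 1.56. At 240 min they ran from -0.84 to 0.49, with a median of 0.16. Over the 20752 LOC_Os loci with a metcamifen mean of at least 2 CPM at 30 min, the medians were -0.01, -0.06 and 0.01. The 123 loci that met every other part of the rule and kept an effect of 0.5 or more had medians of 1.80, 2.73 and 1.30. The plot of effects over time shows the 41 courses.

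The loci near a bound show how sharp the selection was. On the bound of 1 at 30 min, LOC_Os03g57690 (1.03) and LOC_Os03g60570 (1.12) lay just inside, and LOC_Os03g50140 (0.988) and LOC_Os11g05530 (0.986) just outside. At 90 min LOC_Os03g60570 (1.01) and LOC_Os01g17396 (1.06) lay just inside, and LOC_Os10g38314 (0.984) and LOC_Os11g08200 (0.982) just outside. On the bound of 0.5 at 240 min, LOC_Os01g17396 (0.488) and LOC_Os04g44510 (0.476) lay just inside, and LOC_Os01g58670 (0.501) and LOC_Os10g36660 (0.505) just outside. On that last bound 7 members and 7 other loci lay within 0.1 of it, so no gap parts the members from the loci that stayed higher. Within 0.1 of the bound at 30 min lay 1 member and 12 other loci, and at 90 min 3 members and 4 other loci.

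The members spanned a wide range of carrier levels. Averaged over the 9 DMSO libraries, 11 loci lay under 1 CPM, 13 from 1 to under 10 CPM, 11 from 10 to under 50 CPM and 6 at 50 CPM or more. LOC_Os07g12340 was the most abundant member under metcamifen at 30 min and also among the 4 most abundant in DMSO. At 30 min it stood at 183, 218 and 227 CPM in the DMSO libraries and at 674, 707 and 698 CPM in the metcamifen libraries. At 90 min it stood at 212, 217 and 204 CPM in DMSO and at 669, 782 and 692 CPM under metcamifen. At 240 min the values were 176, 221 and 269 CPM in DMSO and 272, 270 and 279 CPM under metcamifen. The groups were far apart at the first 2 times, and at 240 min the lowest metcamifen library lay just above the highest DMSO library.

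LOC_Os03g57690 had the smallest effect of all members at 30 min and rose further at 90 min. Its DMSO libraries read 200, 243 and 209 CPM at 30 min and 200, 248 and 194 CPM at 90 min. Its metcamifen libraries read 435, 443 and 456 CPM at 30 min and 688, 665 and 712 CPM at 90 min, all 3 above all 3 of 30 min. At 240 min it read 241, 307 and 273 CPM in DMSO and 394, 342 and 357 CPM under metcamifen, still without overlap. LOC_Os03g19720 went the other way between the first 2 times. Its metcamifen libraries fell from 374, 295 and 326 CPM at 30 min to 169, 152 and 133 CPM at 90 min, while DMSO read 85.3, 105 and 116 CPM and then 55.4, 74.2 and 67.8 CPM. LOC_Os10g02380 rose from 270, 266 and 285 CPM under metcamifen at 30 min to 342, 326 and 337 CPM at 90 min. It then stood at 175, 131 and 138 CPM at 240 min, overlapping the DMSO libraries at 89.0, 138 and 148 CPM.

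The 4 largest effects at 30 min belonged to LOC_Os03g62230, LOC_Os10g31780, LOC_Os05g48930 and LOC_Os01g32380, which were all low in carrier cultures. For loci this low the order depends on the 0.5 CPM added to both means. LOC_Os07g22730, with means of 0.209 CPM in DMSO and 3.23 CPM under metcamifen, had an effect of 2.39. LOC_Os01g32380, with means of 0.410 and 4.42 CPM, had one of 2.43. LOC_Os03g62230 read 1.18, 2.39 and 2.68 CPM in DMSO and 22.8, 24.5 and 26.7 CPM under metcamifen at 30 min. It had dropped to 4.74, 7.15 and 5.39 CPM under metcamifen by 90 min and read 1.96, 1.78 and 2.59 CPM at 240 min, inside the DMSO spread of 1.80 to 2.37 CPM or next to it. Most of its rise was thus over by 90 min. LOC_Os10g31780 read 0.411, 0.419 and 1.22 CPM in DMSO and 11.1, 9.06 and 10.2 CPM under metcamifen at 30 min. Under metcamifen it stood higher still at 90 min, at 16.3, 15.5 and 17.004 CPM, and at 0.717, 0.481 and 0.517 CPM at 240 min. Its effect of 3.84 at 90 min was the highest of the 41. LOC_Os05g48930 also had all of its metcamifen libraries higher at 90 min, at 26.2, 24.1 and 26.5 CPM against 16.9, 15.1 and 15.5 CPM at 30 min, and read 2.15, 1.64 and 1.66 CPM at 240 min. LOC_Os01g32380 read 0.463, 0.419 and 0.349 CPM in DMSO and 4.53, 4.05 and 4.66 CPM under metcamifen at 30 min, and fell to 2.40, 1.90 and 1.28 CPM at 90 min.

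**Figure D2:**
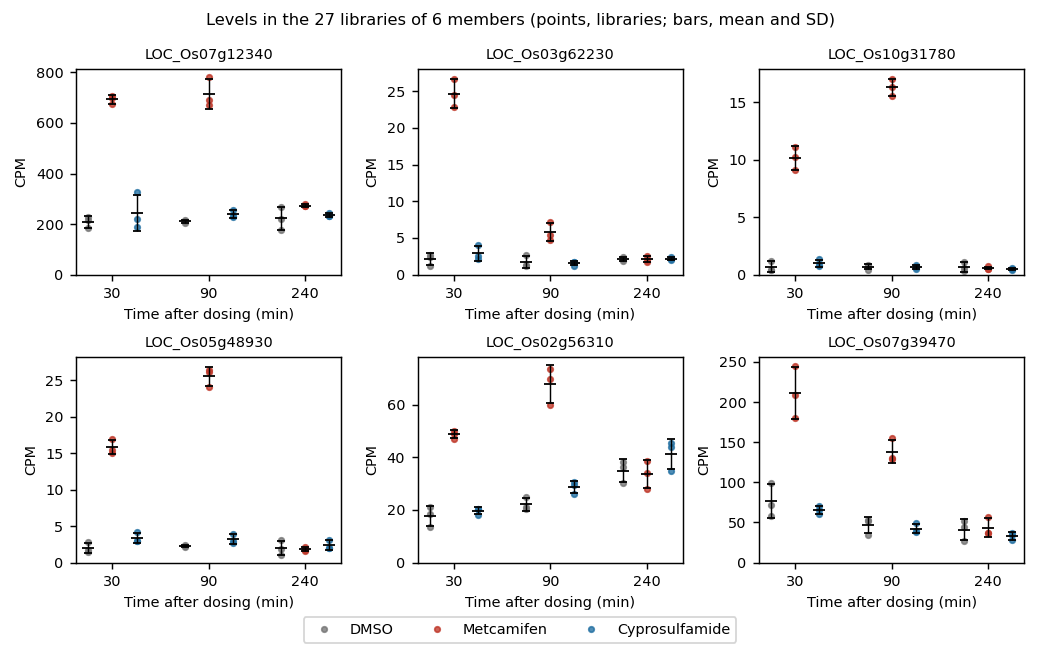
CPM in each of the 27 libraries (points), with the mean and SD of each group of 3 (bars), for 6 members at 30, 90 and 240 min (time axis not to scale, a CPM axis for each locus from 0). LOC_Os03g62230 is down to 4.74 to 7.15 CPM by 90 min under metcamifen, while LOC_Os10g31780 and LOC_Os05g48930 are higher at 90 than at 30 min. LOC_Os02g56310 climbs over time in the DMSO and cyprosulfamide cultures, to 30.2 to 45.3 CPM at 240 min.

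One locus was seen only in metcamifen libraries. LOC_Os09g31990, singled out after its values were seen, had no count in any of the 9 DMSO and 9 cyprosulfamide libraries. Under metcamifen it read 1.65, 2.26 and 2.10 CPM at 30 min, 1.58, 1.31 and 1.88 CPM at 90 min and 0.143, 0.0963 and 0 CPM at 240 min. These are 112, 88 and 5 counts over the 3 libraries of each time. A floor of 3 counts over the 3 libraries was set for a group at 0, and the metcamifen counts were taken as observed. The locus was then at least 37.6-fold higher than in DMSO at 30 min and at least 29.1-fold higher at 90 min. This covers counting error in the group at 0 only. Against the cyprosulfamide libraries the bounds were 64.4-fold and 24.7-fold. LOC_Os09g31990 and LOC_Os07g22730 passed the low-count filter of the tests only through metcamifen libraries, and the other 39 also passed without them.

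The members differed in when they stood highest. The metcamifen mean was higher at 30 min for 19 loci and at 90 min for 22. All 3 libraries were higher at 90 than at 30 min for 12 loci, where 12% of all 26465 loci tested were. All 3 were lower for 11, where 14.1% of loci tested were, and the groups overlapped for 18. Among the 12 was LOC_Os01g28680, which rose from 118, 106 and 103 CPM to 172, 168 and 170 CPM against 22.4 to 34.5 CPM in all DMSO libraries. Among the 11 was LOC_Os08g39150, which fell from 157, 124 and 122 CPM to 99.9, 76.2 and 93.7 CPM.

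From 90 to 240 min every metcamifen library of every member fell below every 90 min library, in 41 of 41 loci, where 10.7% of all loci tested did. The rule asked for a high effect at 90 min and a low one at 240 min, so nothing is read from this count. The log2 level fell by 1.42 at the median, and changes ran from -3.97 to -0.74. In DMSO the same step was 0.07 at the median, from -0.45 to 0.65. The DMSO libraries of the 2 times overlapped for 36 loci. All stood higher at 240 min for 3, where 4.89% of loci tested did, and all stood lower for 2, where 7.68% did. For some loci a rise in DMSO made up a good part of the fall in effect: for LOC_Os02g56310 the DMSO level rose by 0.64 and the metcamifen level fell by 1.00 on the log2 scale. Of the larger of the 30 and 90 min differences in CPM, a median of 3.95% was left at 240 min, and the share ran from -38.1% to 19.1%. It was under 10% for 32 loci. The effects fell between -0.25 and 0.25 for 23 loci at 240 min, at 0.25 or more for 15 and at -0.25 or less for 3.

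**Figure D3:**
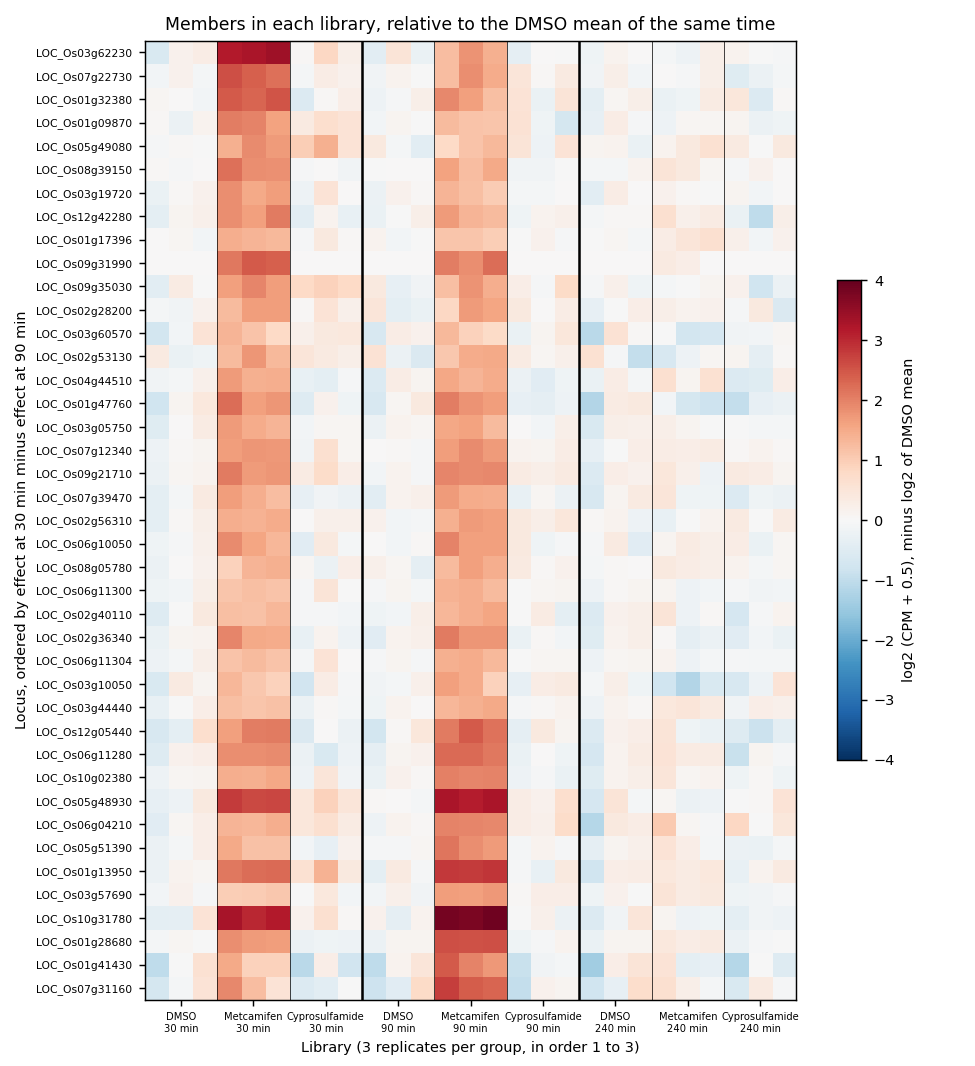
Log2 of CPM plus 0.5 for the 41 loci (rows, ordered from the most early to the most late effect) in each of the 27 libraries (columns, grouped by time and treatment), as a colour, relative to the DMSO mean of the locus at the same time. The metcamifen libraries at 30 and 90 min stand out in every row, and those at 240 min lie close to the DMSO and cyprosulfamide libraries.

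At 240 min the groups no longer separated for most loci. The metcamifen and DMSO libraries overlapped for 31 of the 41. For 9 loci, or 22% of the members, all metcamifen libraries still lay above all DMSO libraries, against 11.7% of all 26465 loci tested. These were LOC_Os01g13950, LOC_Os01g17396, LOC_Os01g28680, LOC_Os03g44440, LOC_Os03g57690, LOC_Os05g49080, LOC_Os07g12340, LOC_Os08g05780 and LOC_Os12g42280, named because of this. For 1 locus, LOC_Os03g10050, all lay below, against 7.01% of loci tested. At 90 min all 41 were separate and higher, where 9.05% of loci tested were. The rule asked for an effect of at least 1 from these same libraries, so nothing is read from that count.

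The 4 lowest effects at 240 min belonged to LOC_Os03g10050, LOC_Os01g47760, LOC_Os03g60570 and LOC_Os02g53130. LOC_Os03g10050 read 1.28, 2.93 and 2.39 CPM in DMSO and 6.32, 5.24 and 4.66 CPM under metcamifen at 30 min. At 240 min it read 2.59, 3.34 and 2.44 CPM in DMSO and 1.39, 0.963 and 1.66 CPM under metcamifen, below the carrier in all 3 libraries. The difference did not pass edgeR's test at 240 min (log2 fold change -1.13, SE 0.377, adjusted p = 0.0984). With all libraries thinned to the same total it did, at -1.82 with an adjusted p of 0.0315. LOC_Os01g47760 read 8.09, 24.1 and 24.9 CPM in DMSO and 17.4, 11.5 and 10.5 CPM under metcamifen at 240 min, so its low effect rests on 2 of the 3 DMSO libraries. With all libraries its log2 fold change was -0.53 (SE 0.352, adjusted p = 0.538). Without the 3 DMSO libraries of replicate 1, an omission chosen after seeing the data, it was -0.90, with an adjusted p of 0.0213 in edgeR's test. The rule used these libraries, and both loci were picked as lowest at 240 min. These p-values therefore describe the choice, and no drop below the carrier is read from them. LOC_Os03g60570 and LOC_Os02g53130 had overlapping groups at 240 min, at 1.90, 7.17 and 4.71 CPM against 4.54, 2.55 and 2.69 CPM and at 27.8, 17.4 and 8.98 CPM against 11.4, 15.5 and 19.04 CPM.

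The difference between metcamifen and DMSO was also fitted with edgeR's quasi-likelihood model, with p-values adjusted by Benjamini and Hochberg over 26465 loci and calls at an adjusted p under 0.05. The rule used these libraries, so the counts are given as a description. At 30 min 37 of the 41 members were called higher, where 1.16% of all loci were. At 90 min 40 members were called higher, where 4.49% of all loci were. The uncalled ones at 30 min were LOC_Os01g41430, LOC_Os03g10050, LOC_Os03g60570 and LOC_Os07g31160, and at 90 min LOC_Os03g60570. At 240 min 1 member was called higher, where 3.06% of all loci were. It was LOC_Os01g17396, at 6.24, 6.64 and 5.99 CPM in DMSO and 7.84, 9.10 and 10.1 CPM under metcamifen (log2 fold change 0.49, SE 0.13, adjusted p = 0.0281). This call ended in 8 of 13 alternative settings, among them the fit without the 3 DMSO libraries of replicate 1 and those without DMSO replicate 1 or 3 or metcamifen replicate 2 or 3 at 240 min. Without metcamifen replicate 3 LOC_Os08g39150 was called in its place (0.44, adjusted p = 0.0442). The median log2 fold change of the members at 240 min was 0.20 in this fit. It was -0.03 without DMSO replicate 1 of that time and 0.31 without DMSO replicate 3.

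LOC_Os01g41430 shows the spread behind a missed call. It read 8.48, 17.4 and 27.0 CPM in DMSO and 51.8, 33.8 and 33.8 CPM under metcamifen at 30 min. Its groups did not overlap, but its lowest and highest DMSO libraries lay further apart than the highest DMSO and the lowest metcamifen library. The log2 fold change was 1.17 (SE 0.473, adjusted p = 0.51).

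The 2 safeners were given at the same dose and sampled at the same times, and the 41 loci were high under metcamifen by choice. Every metcamifen library lay above every cyprosulfamide library for all 41 loci at 30 and 90 min, where 4.23% and 10.2% of all loci tested were so placed, and for 12 loci at 240 min, where 9.51% were. The rule used the metcamifen libraries, so these counts describe the choice. In the fit across all loci, 36 members were called higher under metcamifen than under cyprosulfamide at 30 min, where 1.18% of all loci were. At 90 min it was 40 members, where 5.05% of all loci were, and at 240 min 2 members, where 2.47% were. The 2 were LOC_Os01g28680 (log2 fold change 0.47, adjusted p = 0.0175) and LOC_Os03g57690 (0.54, adjusted p = 0.0139). The count of 2 became 0 without metcamifen replicate 1, cyprosulfamide replicate 1 or cyprosulfamide replicate 2 at 240 min, and 1 without metcamifen replicate 3.

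No member passed the test between cyprosulfamide and DMSO at any of the 3 times. The cyprosulfamide libraries were not used in the choice, but the DMSO libraries were. At 30 and 90 min choosing loci low in DMSO favours a positive difference, and at 240 min the bound on the effect favours loci high in DMSO and a negative one. The share of all loci called was 0.00378% at 30 min (1 locus, not a member) and 0.0% at 90 and at 240 min. At an unadjusted p under 0.05, 6 members were higher at 30 min, 1 at 90 min and 0 at 240 min, where 5.64%, 1.47% and 3.17% of all loci were. Lower ones numbered 0 at each time, where 3.99%, 1.62% and 3.14% of all loci were lower. DESeq2 called 1, 0 and 0 members, and 0.219%, 0.0% and 0.0189% of all loci. The median log2 fold change over the 40 members with counts was 0.11, 0.05 and -0.11 at the 3 times, where the median over all loci was -0.02, 0.00 and 0.00.

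Some members stood apart from DMSO library by library. All cyprosulfamide libraries lay above all DMSO libraries for 7 members at 30 min, which is 17.1% of the members against 6.11% of loci tested, and below them for 1, against 3.57%. At 90 min it was 5 members, or 12.2% against 4.47%, with 0 below, against 3.68%. These DMSO libraries are those the rule used. At 240 min it was 0 members, against 7.46% of loci tested, and all 41 overlapped. The 95% interval of the fold change stayed within 2-fold in both directions for 24 of 40 members at 30 min, for 29 at 90 min and for 26 at 240 min. For the others the interval reached past 2-fold in at least 1 direction.

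The member nearest to a call was LOC_Os05g49080, named for that. It read 2.06, 2.21 and 2.10 CPM in DMSO, 4.63, 6.47 and 3.35 CPM under cyprosulfamide and 6.59, 9.25 and 8.09 CPM under metcamifen at 30 min. The 3 groups did not overlap and cyprosulfamide lay between the others. Its log2 fold change for cyprosulfamide was 1.21 (SE 0.265, adjusted p = 0.129 in edgeR's test), and 1.42 with an adjusted p of 0.0270 without cyprosulfamide replicate 3. At 90 min its cyprosulfamide libraries read 4.68, 2.65 and 4.85 CPM and overlapped the DMSO libraries at 4.23, 2.98 and 2.20 CPM. LOC_Os09g35030 had a larger but less certain difference at 30 min, at 1.01, 1.14 and 1.00 CPM against 0.154, 0.598 and 0.349 CPM in DMSO (log2 fold change 1.55, SE 0.394, adjusted p = 0.231).

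Changes between times within the cyprosulfamide cultures used no library of the rule. From 30 to 240 min 1 member rose, where 0.786% of all loci did, and 3 fell, where 1.25% of all loci did. LOC_Os02g56310 rose from 18.1, 20.4 and 20.4 CPM at 30 min through 29.5, 26.1 and 30.5 CPM at 90 min to 45.3, 34.9 and 44.03 CPM at 240 min. No library of one time overlapped one of another, and the log2 fold change from 30 to 240 min was 1.03 (SE 0.142, adjusted p = 0.000317, edgeR), called in 12 of 12 alternative settings. In DMSO the same locus read 13.5, 18.5 and 21.1 CPM at 30 min, 25.01, 20.4 and 21.2 CPM at 90 min and 36.4, 38.3 and 30.2 CPM at 240 min. Under metcamifen it read 49.0, 47.1 and 50.1 CPM, then 59.9, 73.7 and 70.0 CPM, and 28.1, 34.2 and 38.5 CPM at 240 min. Its return to the carrier level therefore met a carrier level that was itself higher at 240 than at 30 min.

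The 3 members that fell from 30 to 240 min were LOC_Os07g39470, LOC_Os09g21710 and LOC_Os01g17396. LOC_Os07g39470 went from 60.7, 69.9 and 65.0 CPM to 28.1, 36.6 and 34.5 CPM under cyprosulfamide (log2 fold change -1.01, SE 0.238, adjusted p = 0.0261, edgeR). In DMSO it went from 58.3, 72.1 and 99.2 CPM to 26.3, 44.3 and 52.2 CPM. LOC_Os09g21710 went from 12.1, 16.2 and 11.6 CPM to 8.34, 7.92 and 7.01 CPM (-0.85, SE 0.203, adjusted p = 0.0281), and in DMSO from 8.12, 10.2 and 10.6 CPM to 4.21, 7.80 and 7.26 CPM. LOC_Os01g17396 went from 8.76, 11.9 and 9.38 CPM to 7.25, 5.86 and 7.08 CPM (-0.63, SE 0.136, adjusted p = 0.0147), and in DMSO from 8.99, 9.57 and 8.33 CPM to 6.24, 6.64 and 5.99 CPM. In DMSO too, all 3 loci had every 240 min library below every 30 min library. Leaving out 1 library took the number of members called in either direction from 4 to 1 without cyprosulfamide replicate 2 at 30 min, or without replicate 2 or replicate 3 at 240 min, and to 2 without replicate 1 at 240 min.

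Members without a call leaned the same way. From 30 to 240 min 32 of the 40 members with counts had a log2 fold change below 0, and the median was -0.37 against 0.01 over all loci. All libraries were lower at 240 than at 30 min for 14 of the 41 members, or 34.1%, against 7.51% of loci tested. The 123 loci that stayed higher under metcamifen leaned downward too, with 84 below 0 and a median of -0.18. All libraries were lower for 15.4% of the 123, and 5.69% were called lower, against 7.32% of the members. Without cyprosulfamide replicate 2 at 30 min the median of the members was -0.15. The 30 min libraries were also the deepest, at 23743177 to 43747251 counts, and the 240 min libraries the shallowest, at 5516373 to 14262183. With all libraries thinned to 5516373 counts the median of the members was -0.38. The part of that library in the lower values at 240 min was not tested beyond these figures. On log2 of CPM plus 0.5, the median step from 30 to 240 min over the 41 loci was -0.29 under cyprosulfamide and -0.03 in DMSO. The mean CPM was lower at 240 min for 29 of the 41 under cyprosulfamide and for 22 in DMSO. The rule used the DMSO libraries, and its bounds favour loci low there at 30 min and high at 240 min.

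From 30 to 90 min 1 member fell under cyprosulfamide, where 0.0567% of all loci did. It was LOC_Os09g21710, which reached 7.33, 6.75 and 7.52 CPM (log2 fold change -0.92, SE 0.194, adjusted p = 0.0477, edgeR), and the call ended in 7 of 12 alternative settings, among them the fits without any one of replicate 1 or replicate 2 at 30 min and replicates 1, 2 and 3 at 90 min. All libraries were lower at 90 min for 8 members, against 5.18% of loci tested. The median over 40 members was -0.23, and -0.03 without cyprosulfamide replicate 2 at 30 min. LOC_Os03g19720 lay just past the threshold, at 89.4, 151 and 102 CPM at 30 min and 62.1, 62.1 and 66.9 CPM at 90 min (-0.87, adjusted p = 0.0505).

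From 90 to 240 min 0 members were called in the main fit, which had no replicate block, where 0.54% of all loci were called in either direction. At an unadjusted p under 0.05, 2 members were higher and 3 lower, where 5.53% and 6.1% of all loci were. DESeq2 called 2 members and 1.01% of all loci. Same-numbered cyprosulfamide libraries of these 2 times varied together, and with the replicate number as a block 4 members were called. The block raised the calls over all loci too, to 3.35% of them. LOC_Os10g02380 rose (0.61, adjusted p = 0.00181) and so did LOC_Os02g56310 (0.50, adjusted p = 0.0477). LOC_Os08g05780 fell (-0.58, adjusted p = 0.0191) and so did LOC_Os07g39470 (-0.37, adjusted p = 0.0434).

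**Figure D4:**
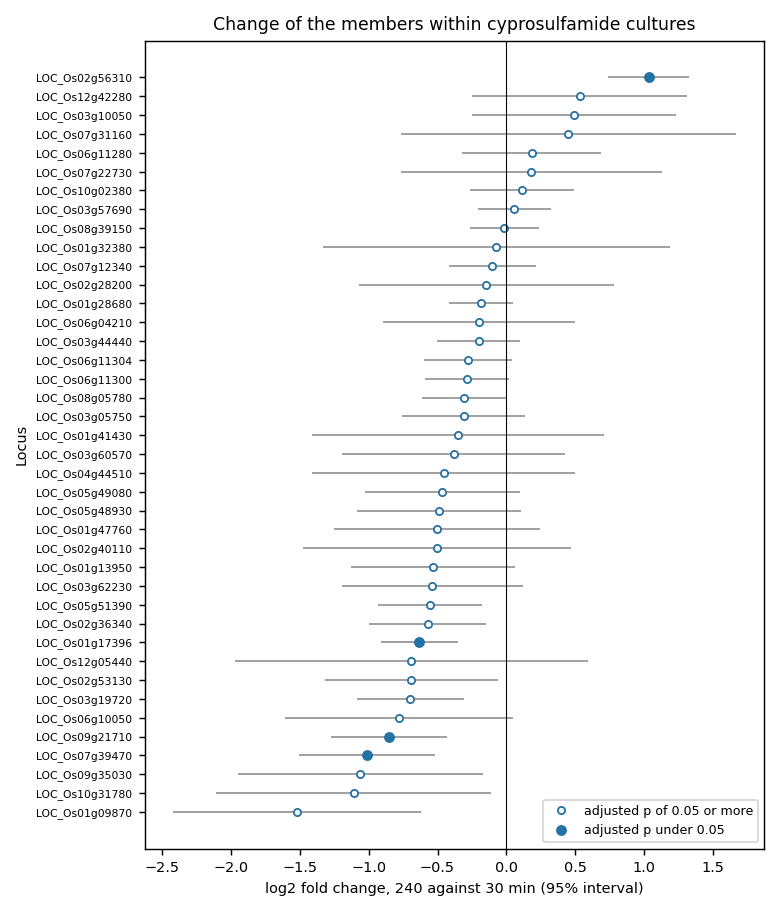
Log2 fold change from 30 to 240 min within cyprosulfamide cultures for the 40 members with counts there (points, edgeR, n = 3 per time), with 95% intervals (lines). Filled points have an adjusted p under 0.05: LOC_Os02g56310 on the right of 0 at 1.03, and 3 loci on the left at -1.01, -0.85 and -0.63. Of the 40 points, 32 lie below 0.

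By the identifiers, the members were spread over 11 of the 12 rice chromosomes. Chromosomes 1 and 3 held 7 each, chromosomes 2 and 6 held 5 each and chromosome 11 held 0. Only on chromosome 6 did the numbers in members' identifiers lie within 30 of each other: LOC_Os06g11280, LOC_Os06g11300 and LOC_Os06g11304. LOC_Os06g11280 read 9.51, 15.7 and 16.7 CPM in DMSO and 52.5, 51.5 and 52.8 CPM under metcamifen at 30 min. It read 68.2, 68.2 and 60.3 CPM under metcamifen at 90 min and 21.4, 18.2 and 18.2 CPM at 240 min, where DMSO reached 18.4 CPM.

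LOC_Os06g11300 and LOC_Os06g11304 may be counted largely from the same reads. They held 10591 and 10252 counts over the 27 libraries, and the ratio of the second to the first lay between 0.931 and 0.993 in every library. At 30 min LOC_Os06g11300 read 14.2, 14.96 and 18.98 CPM in DMSO and 35.6, 37.9 and 35.7 CPM under metcamifen, and LOC_Os06g11304 read 13.3, 14.5 and 18.2 CPM and 34.2, 37.2 and 34.5 CPM. Both were back in the DMSO range or next to it at 240 min. Counted once, the pair leaves 40 members, of which 36 were called higher than DMSO under metcamifen at 30 min and 39 at 90 min, and the calls under cyprosulfamide do not change.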

How the data were processed

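The authors deposited 1 table of raw read counts per locus for the 27 libraries, whole numbers that are not normalized, as checked from the values. Alignment with GSNAP and use of edgeR are named, without versions, per the submitters' processing notes. Not given in the sources used here are the genome build, the annotation, strand and the treatment of reads with several matches, so counts of near-identical, overlapping or antisense loci are uncertain.

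Members were found from CPM by column sums, with Python 3.11.15. The members, gene lists and tests were chosen with earlier results of these data known. The filterByExpr filter (count of at least 10, total of at least 15) passed 26465 loci, all 41 members included. TMM-scaled counts were fitted with edgeR 4.0.16 (R 4.3.3; glmQLFit, glmQLFTest) with 9 group means over all 27 libraries, 18 residual degrees of freedom, in 12 two-sided contrasts. P-values were adjusted within each contrast. SE were derived from each F statistic and its fold change. The procedure was tested on simulated data. Alternatives were RLE size factors, DESeq2 1.42.0, no filter, the 6 compared libraries alone, thinning, a replicate block, other bounds of the rule and leaving out libraries.

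The rule for named loci took the 4 members with the highest metcamifen level at 30 min, largest effect at 30 min, lowest effect at 240 min and highest DMSO level, up to 3 per direction called under cyprosulfamide, those at the bounds and those with close identifiers. Any other locus was named after its values were seen. For cyprosulfamide from 90 to 240 min, deviations of same-numbered libraries correlated at 0.20 to 0.55 (loci with a mean log2 CPM above 3). The main fit had no block, so calls with a replicate block are given beside it for that step. The labels call the replicates biological but give no origin beyond that, so p-values measure the spread between these samples. No gene name or sequence table used here held the 41 identifiers: 0 matched in 39387 rows of assembly ASM3414082v1. Bounds from counts take the metcamifen counts as observed and cover counting error in the group at 0 only.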

Additional observations from a re-analysis of the deposited data

How the results depend on the processing

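Of 176 counts recomputed under alternatives, 141 stayed within 1.5 times the count reported and 35 did not. The number of loci that meet the rule was 26 with an upper bound of 0.25 on the 240 min effect and 86 with a bound of 1. It was 38 to 51 when 1 library was left out, with 36 to 41 of the 41 among them, and 29 of the 41 met the rule in all 18 omissions. In what follows, counts are members called. Without the low-count filter they were 1 for cyprosulfamide against DMSO at 30 min, 2 and 1 for cyprosulfamide from 30 to 90 and 90 to 240 min, and 0 for metcamifen against DMSO at 240 min. With the 6 compared libraries alone they were 0, 2 and 2 for cyprosulfamide from 30 to 90, 90 to 240 and 30 to 240 min, and 0 for metcamifen against DMSO at 240 min. Thinning gave 0 and 2 for 30 to 90 and 30 to 240 min. For metcamifen against DMSO at 240 min it gave 1, but for LOC_Os03g10050, which was lower. DESeq2 gave 1 for cyprosulfamide against DMSO at 30 min, then 3 and 2 for 30 to 90 and 90 to 240 min within cyprosulfamide. The cause of these shifts was not tested.

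With a replicate block, the counts for cyprosulfamide were 7, 4 and 10 (30 to 90, 90 to 240 and 30 to 240 min), and the block moved no other count by over 1.5 times. Over all loci it gave 505, 887 and 2296 calls, against 51, 143 and 538 without it. Apart from cyprosulfamide from 90 to 240 min, same-numbered libraries did not all correlate above 0.1, so the numbers were not read as pairs there. The lowest was 0.0444 to 0.0866 for cyprosulfamide and DMSO of one time, and -0.0481 and -0.0791 from 30 to 90 and 30 to 240 min. Number 1 differed: its cyprosulfamide and DMSO libraries correlated at 0.531, 0.586 and 0.502 at 30, 90 and 240 min. Same-numbered metcamifen and DMSO libraries correlated at -0.837 to -0.292. What the replicate numbers share was not tested.

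Leaving out 1 library gave 0 to 1, 0 to 0 and 0 to 0 for cyprosulfamide against DMSO at 30, 90 and 240 min, and 35 to 38, 40 to 40 and 0 to 1 for metcamifen. Metcamifen against cyprosulfamide gave 33 to 36, 39 to 40 and 0 to 2. Within cyprosulfamide the ranges were 0 to 2, 0 to 0 and 1 to 5 (30 to 90, 90 to 240 and 30 to 240 min). Without the 3 DMSO libraries of replicate 1, an omission chosen after seeing the data, the counts for metcamifen against DMSO were 37, 40 and 1, the last for another locus, which was lower. At these depths, 95% intervals for cyprosulfamide against DMSO stayed within 2-fold for only 24 to 29 of 40 members.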

Other observations

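Among the loci listed beside 2 of the members, LOC_Os06g11280 and LOC_Os09g31990, 3 had higher effects at 30 min than those members and kept an effect above 0.5 at 240 min. They were singled out after their values were seen. LOC_Os06g11290, next to LOC_Os06g11280, read 370 ± 120 CPM (SD, n = 3) in DMSO and 2037 ± 116 CPM under metcamifen at 30 min, 334 ± 101 and 2485 ± 180 CPM at 90 min, and 344 ± 140 and 631 ± 113 CPM at 240 min. Its effect of 0.87 at 240 min put it outside the rule. LOC_Os06g11260 read 0.353 ± 0.0982 CPM in DMSO and 18.4 ± 4.13 CPM under metcamifen at 30 min, and 0.494 ± 0.222 and 2.30 ± 0.929 CPM at 240 min. LOC_Os09g32000, next to LOC_Os09g31990, read 0.0941 ± 0.0900 CPM in DMSO and 30.6 ± 2.30 CPM under metcamifen at 30 min, and 0.0693 ± 0.0604 and 0.870 ± 0.134 CPM at 240 min. LOC_Os09g31970 on the same list read 62.0 ± 0.405 and 62.5 ± 2.35 CPM at 30 min. In cyprosulfamide cultures at 30 min LOC_Os06g11290 read 297 ± 41.2 CPM, LOC_Os06g11260 0.382 ± 0.153 CPM and LOC_Os09g32000 0.0825 ± 0.109 CPM. No coordinates were used, so distances between these loci are not given, and whether reads were shared between them was not tested.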
